A study of Mus musculus with 899 samples.

Results

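The miR-17 to miR-92a cluster is a group of 6 miRNAs, mmu-miR-17-5p, mmu-miR-18a-5p, mmu-miR-19a-3p, mmu-miR-19b-3p, mmu-miR-20a-5p and mmu-miR-92a-3p, that are cut from a single long primary transcript. Its members were taken by name from a table of 1915 mature mouse miRNAs and not by their measured values. Earlier results of these data were known when the cluster and the miRNAs compared with it were chosen. Plasma miRNA was sequenced in 899 samples from 196 young adult mice of the strains C3Hf/Sed/Kam (C3H) and C57Bl/6. Mice received a single dose of X-rays to the whole thorax with the remainder of the body shielded, or a sham exposure, and the same mice were bled repeatedly. In C3H there were 64 irradiated and 32 sham mice, followed to month 4 (M4), and in C57Bl/6 there were 68 irradiated and 32 sham mice, followed to month 6 (M6). Of the 68, 64 had a sample before exposure, and 64 is the number of irradiated C57Bl/6 mice that the authors give. Samples were taken before exposure (PT), at day 2 (D2) or day 5 (D5), and monthly from month 1 (M1), in females and males alike. No group carried a transgene or a deleted gene according to the labels. The dose differed slightly between strains, so strain and dose cannot be told apart in any comparison of irradiated mice. The authors state that females were somewhat older than males before irradiation, so sex and age cannot be told apart either.

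The sample titles also divide the mice of each strain into groups named G2 and G4 in C3H and G1 and G3 in C57Bl/6, called title groups below. The labels do not say what these groups are. In G1, 16 irradiated females were sampled at PT and 20 at M1. Only G1 and G2 were followed past month 1, so later time points hold fewer mice. Irradiated mice were also fewer at the last bleeds, with 17 in C3H at month 4 and 8 in C57Bl/6 at month 6, and the values there belong to the mice still sampled.

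miRNAs are short RNAs that guide silencing of messenger RNAs, and their bases 2 to 8, the seed, do most of the target recognition. The miR-17 to miR-92a cluster is known as a promoter of cell proliferation and survival, is required for normal lung and B cell development, and is a target of the MYC and E2F transcription factors. In plasma, miRNAs come from blood cells, vessel wall and organs, and plasma that contains lysed red blood cells carries more of the red cell miRNAs mmu-miR-451a, mmu-miR-144-3p and mmu-miR-486a-5p. In such a mixed fluid, release by fewer cells of a type and less release per cell cannot be told apart.

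The mature sequences, from RefSeq (GRCm38.p6), are shown 5′ to 3′ with the seed in capitals, because the members fall into 4 seed groups and because 3 of them have a near copy whose level relative to the member changed after irradiation. All 6 members were found in the sequence table.
mmu-miR-17-5p: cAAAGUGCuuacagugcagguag
mmu-miR-20a-5p: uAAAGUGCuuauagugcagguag
mmu-miR-18a-5p: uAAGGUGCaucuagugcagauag
mmu-miR-19a-3p: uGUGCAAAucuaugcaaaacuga
mmu-miR-19b-3p: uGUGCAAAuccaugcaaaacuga
mmu-miR-92a-3p: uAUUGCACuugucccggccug
The near copies from the paralogous cluster on chromosome X are shown for comparison.
mmu-miR-106a-5p: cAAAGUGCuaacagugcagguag
mmu-miR-20b-5p: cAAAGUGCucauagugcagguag
mmu-miR-18b-5p: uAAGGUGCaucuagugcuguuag

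mmu-miR-17-5p and mmu-miR-20a-5p shared a seed with each other and with mmu-miR-106a-5p and mmu-miR-20b-5p. Counted from the 5′ end of the first-named miRNA, mmu-miR-17-5p differed from mmu-miR-106a-5p by U10A only, mmu-miR-20a-5p from mmu-miR-20b-5p by U1C and U10C, and mmu-miR-18a-5p from mmu-miR-18b-5p by A18U and A20U. mmu-miR-19a-3p differed from mmu-miR-19b-3p by U11C, and mmu-miR-17-5p from mmu-miR-20a-5p by C1U and C12U. With a single base between some pairs, a read with a sequencing error can be assigned to the wrong copy, and how the authors' counting treated such reads is not given in the sources used here.

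On chromosome 14 the 6 hairpins span 836 bases, at chr14:115043671-115044506 on the plus strand, all inside exon 2 of Mir17hg, a long non-coding host gene of 2 exons (ENSMUSG00000089726.2, chr14:115042879-115046727). In transcript order the mature forms are mmu-miR-17-5p at chr14:115043684-115043706, mmu-miR-18a-5p at chr14:115043867-115043889, mmu-miR-19a-3p at chr14:115044048-115044070, mmu-miR-20a-5p at chr14:115044183-115044205, mmu-miR-19b-3p at chr14:115044358-115044380 and mmu-miR-92a-3p at chr14:115044476-115044496. A second copy of mmu-miR-19b-3p (chrX:52741991-52742013, minus strand) and of mmu-miR-92a-3p (chrX:52741854-52741874, minus strand) lies in a paralogous cluster (the X cluster) together with mmu-miR-106a-5p (chrX:52742541-52742563), mmu-miR-18b-5p (chrX:52742381-52742403) and mmu-miR-20b-5p (chrX:52742159-52742181). The mature sequences of both copies are identical, so the counts of these 2 members sum over both chromosomes.

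Total counts ranged from 206490 to 11814515 reads per sample with a median of 1475030, and group medians from 855374 to 2882714. No 2 samples held the same values. Levels are given as log2 of CPM, the reads of a miRNA scaled to a common library total, and 483 of the 1915 miRNAs, all 6 members among them, had enough reads to be tested. All 5 red cell markers had a count in every sample (mean log2 CPM of mmu-miR-451a 12.56 and of mmu-miR-486a-5p 14.67), and so did all 6 leukocyte markers and both endothelial and platelet markers. Of the 2 hepatocyte markers, mmu-miR-122-5p averaged 11.69 and mmu-miR-122-3p was at 0 in 584 of 899 samples. The samples therefore held miRNAs of all the listed cell types.

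The 6 members were all present in plasma in every sample but at very different levels. mmu-miR-92a-3p and mmu-miR-20a-5p were the most abundant, with mean log2 CPM of 11.30 ± 0.71 and 11.06 ± 0.60 (SD, n = 899) and median counts of 3516 and 3168 reads. mmu-miR-17-5p followed at 9.07 ± 0.85 (756 reads) and mmu-miR-19b-3p at 8.49 ± 0.57 (569 reads). The lowest were mmu-miR-18a-5p at 7.18 ± 0.71 (211 reads) and mmu-miR-19a-3p at 6.92 ± 0.75 (188 reads). The neighbours mmu-miR-92a-3p and mmu-miR-20a-5p, mmu-miR-17-5p and mmu-miR-19b-3p, and mmu-miR-18a-5p and mmu-miR-19a-3p differed by less than the SD of the first of each pair, and the steps between these pairs were larger than it. The smallest count of a member in any sample was 2 reads, for mmu-miR-19a-3p. Mature miRNAs of the cluster are nearly equal in length (21 to 23 bases), and ligation during library preparation can favour some sequences over others. The part of length or ligation in this order was not tested.

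The 6 members together held a median of 0.615% of all reads (range 0.171 to 1.33). Within that sum mmu-miR-92a-3p made up a median of 41.1% and mmu-miR-20a-5p 37.7%, against 8.03% for mmu-miR-17-5p, 6.11% for mmu-miR-19b-3p, 2.28% for mmu-miR-18a-5p and 2.09% for mmu-miR-19a-3p. These shares differed between title groups. Before irradiation the median share of mmu-miR-17-5p was 24.0% in title group G2 of C3H, 7.65% in G4 of C3H, 6.51% in G1 and 4.94% in G3 of C57Bl/6. That of mmu-miR-20a-5p was 24.7% in G1, 37.5% in G3 and 47.5% in G4 and was lowest in G2, and that of mmu-miR-92a-3p ran from 33.8% in G4 to 61.6% in G1.

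**Figure D1:**
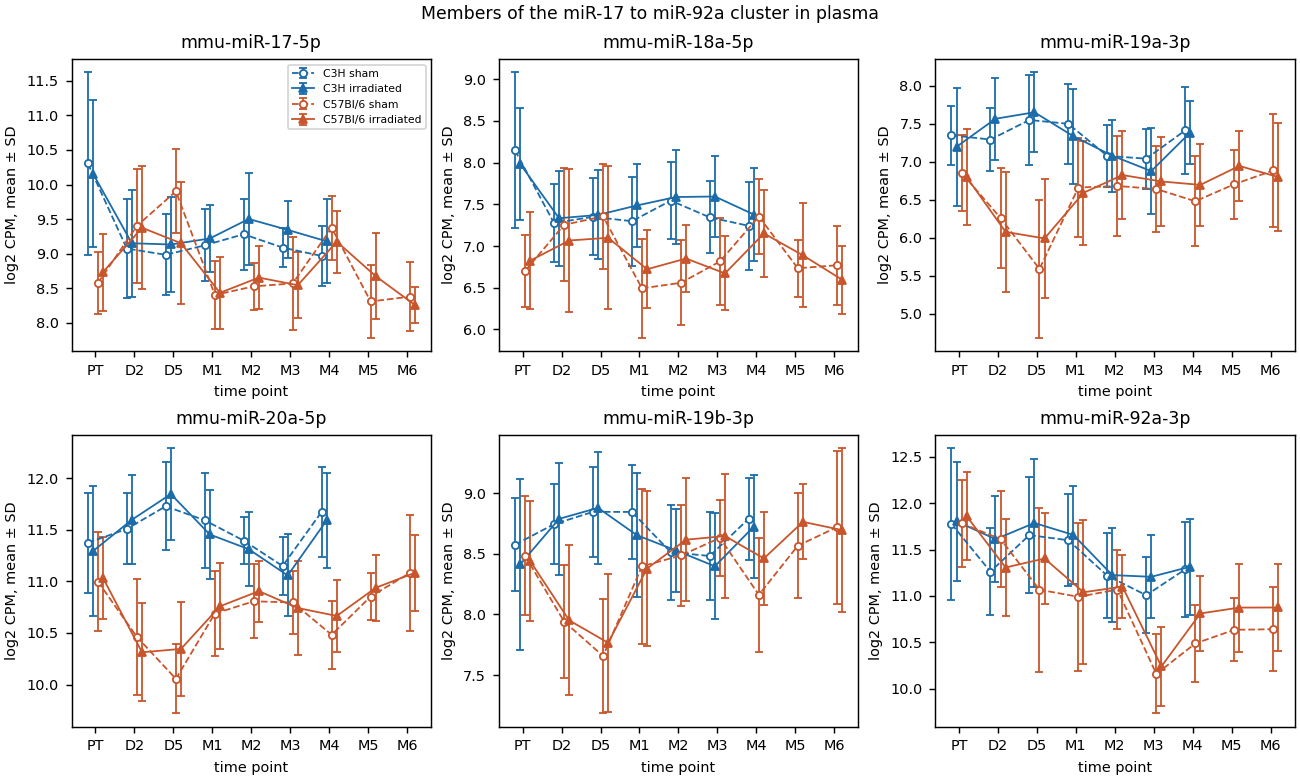
Level of each member (log2 CPM, mean with SD) at every time point in sham and irradiated mice of both strains. The sham and irradiated means lie close together at nearly every time point, while mmu-miR-17-5p in C3H is high before irradiation and lower at all later bleeds in both arms.

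Irradiation against sham was then compared at each time point in each strain. The circulating level of the cluster moved little: after irradiation, 1 of the 84 tests of a member passed an adjusted p of 0.05 (edgeR quasi-likelihood test, Benjamini-Hochberg adjustment over the 483 miRNAs of each comparison), and 3 had an unadjusted p under 0.05. Over all miRNAs and the same comparisons, 3.76% of 6762 tests passed. In C3H 0 of 36 member tests passed (1 unadjusted, against 2.42% passing over all miRNAs), and in C57Bl/6 1 of 48 (2 unadjusted, against 4.76%). Fold changes of the members on the log2 scale ran from −0.62 to 0.42. Their median size was 0.127 on the log2 scale, against 0.271 over all miRNAs tested. In 83 of the 84 tests the 95% confidence interval lay within 1 log2 unit of 0 on both sides, so changes of more than a doubling or halving of these group means lay outside those intervals.

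At D2 and D5, the early bleeds, all 6 members lay slightly above sham in C3H, with medians of 0.12 and 0.11 on the log2 scale over the 6, and none passed. The highest value there was 0.35 for mmu-miR-92a-3p at D2 (unadjusted p under 0.05, adjusted p = 0.306 by edgeR). In these comparisons 4.97% of all miRNAs passed at D2 and 3.11% at D5. At M1, M2, M3 and M4 in C3H, 3.31%, 0.621%, 2.07% and 0.414% of all miRNAs passed and again no member. mmu-miR-17-5p, mmu-miR-18a-5p and mmu-miR-92a-3p were above sham at all 6 time points in C3H, by up to 0.30, 0.27 and 0.35 on the log2 scale, without passing at any of them.

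The comparison of later-irradiated with sham mice at PT, when neither arm had been exposed, gives the background of the design. No miRNA passed there in either strain (0% of 483 in C3H, with 32 at an unadjusted p under 0.05, and 0% in C57Bl/6, with 25). mmu-miR-17-5p was nevertheless lower by 0.32 on the log2 scale in the C3H mice assigned to irradiation (95% CI −0.60 to −0.04, unadjusted p = 0.0246, adjusted p = 0.695 by edgeR) and mmu-miR-18a-5p by 0.29. These pre-exposure differences were as large as the largest fold changes of both members after irradiation in C3H.

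In C57Bl/6, 6.63% of all miRNAs passed at D2 and 14.1% at D5. At M1 to M6 in turn, 3.73%, 3.31%, 1.66%, 4.76%, 3.52% and 0.414% passed. The members passed at D5 alone, once. At M5 all 6 members lay above sham, led by mmu-miR-17-5p with 0.42 (95% CI −0.02 to 0.86), and at M4 mmu-miR-92a-3p was higher by 0.32 and mmu-miR-19b-3p by 0.28, none of them past the threshold. At M6, with 8 irradiated mice, the intervals were the widest.

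**Figure D2:**
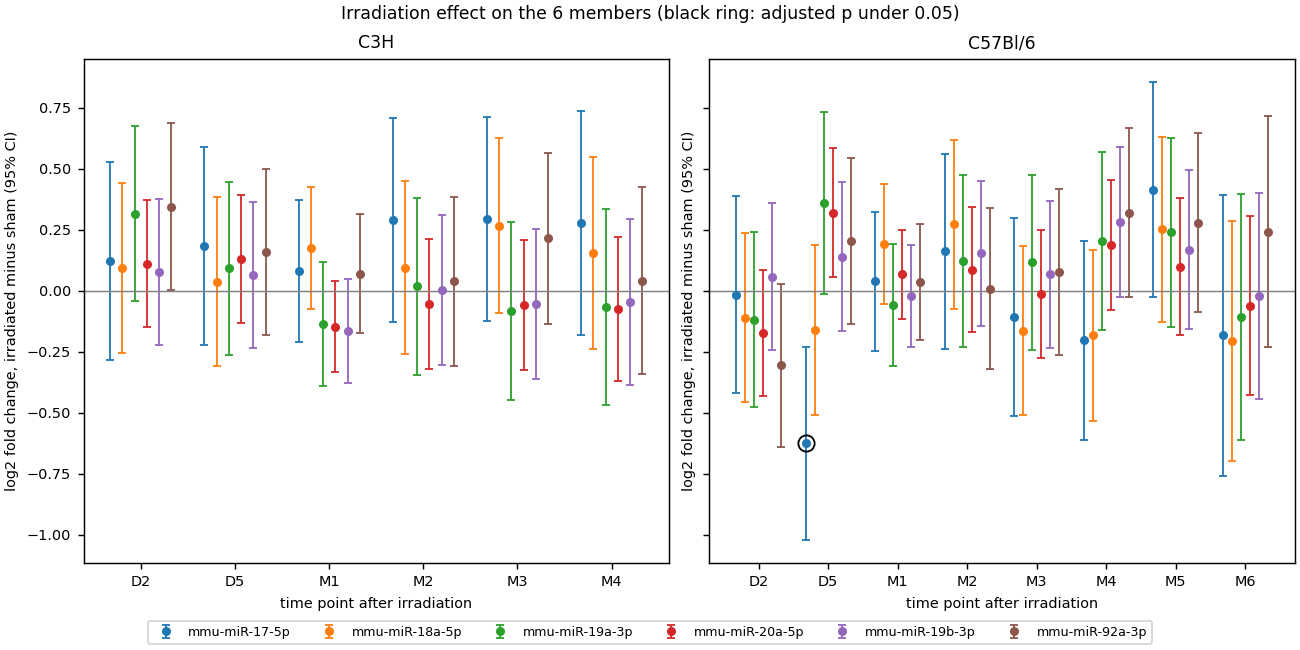
Fold change of each member after irradiation (log2, irradiated minus sham, with 95% confidence interval) at every time point in C3H and C57Bl/6. The only value past an adjusted p of 0.05 is mmu-miR-17-5p at D5 in C57Bl/6, at −0.62, ringed in black.

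The single call was mmu-miR-17-5p, the founding member of the cluster, at D5 in C57Bl/6. In sham mice its log2 CPM ran from 8.94 to 11.1 with a mean of 9.90 ± 0.61 (SD, n = 16), and in irradiated mice from 7.47 to 10.6 with a mean of 9.15 ± 0.88 (n = 32). The groups overlapped over most of their range. The fitted difference was −0.62 on the log2 scale (95% CI −1.02 to −0.23, adjusted p = 0.0192 by edgeR).

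This difference lay in title group G3. Within G1 it was 0.00 (adjusted p = 1 by edgeR), and within G3 −1.55 (adjusted p = 2.98e-08). Within G3 it was −2.41 in females (adjusted p = 1.57e-09) and −0.69 in males (adjusted p = 0.388). The 4 sham females of G3 had log2 CPM of 8.94, 10.41, 10.53 and 11.11, and the 8 irradiated females lay between 7.47 and 8.55, so the groups did not overlap in those females. In the same subset 21.9% of the 483 miRNAs passed, against 0.621% in the G3 males. Without the G3 females at D5, the difference in C57Bl/6 was −0.15 (adjusted p = 0.860), and in a fit of G1 and G2 mice alone it was 0.07 (adjusted p = 0.887). With the counts of mmu-miR-17-5p and its near copy mmu-miR-106a-5p summed it was −0.52 (adjusted p = 0.0583).

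The other members in the G3 females at D5 moved in both directions. mmu-miR-18a-5p, which is encoded next to mmu-miR-17-5p, was lower by 1.13 on the log2 scale (difference −1.13, adjusted p = 0.0128 by edgeR). mmu-miR-92a-3p was higher by 1.09 (adjusted p = 0.000734), with sham values of 9.12 to 10.33 and irradiated values of 10.64 to 11.17, and mmu-miR-19a-3p by 1.36 (adjusted p = 0.0251). In the same mice the summed level of the 5 red cell markers had a median log2 CPM of 14.04 in sham (13.49 to 14.97) and 15.43 in irradiated mice (14.92 to 15.50), so 3 of the 4 sham females lay below every irradiated one. In the other C57Bl/6 mice at D5, the red cell sum of every sham and irradiated mouse lay between 14.57 and 16.96. The 6 leukocyte markers summed to medians of 14.51 in sham and 13.82 in irradiated G3 females, the 2 endothelial and platelet markers to 15.03 and 15.78, and the 2 hepatocyte markers to 10.64 and 9.91. Total reads had a median of 518838 in the 4 sham and 1442115 in the 8 irradiated females of G3. The part of these differences in the values of mmu-miR-17-5p was not tested beyond the fit with mmu-miR-451a as a covariate, which gave −0.79 over all C57Bl/6 mice at D5 (adjusted p = 5.90e-05). Over all C57Bl/6 mice at D5, limma-voom gave −0.77 without a block for the mouse (adjusted p = 0.00753), −0.77 with a random replicate block (adjusted p = 0.00620) and −0.93 with a fixed one (adjusted p = 0.00782).

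**Figure D3:**
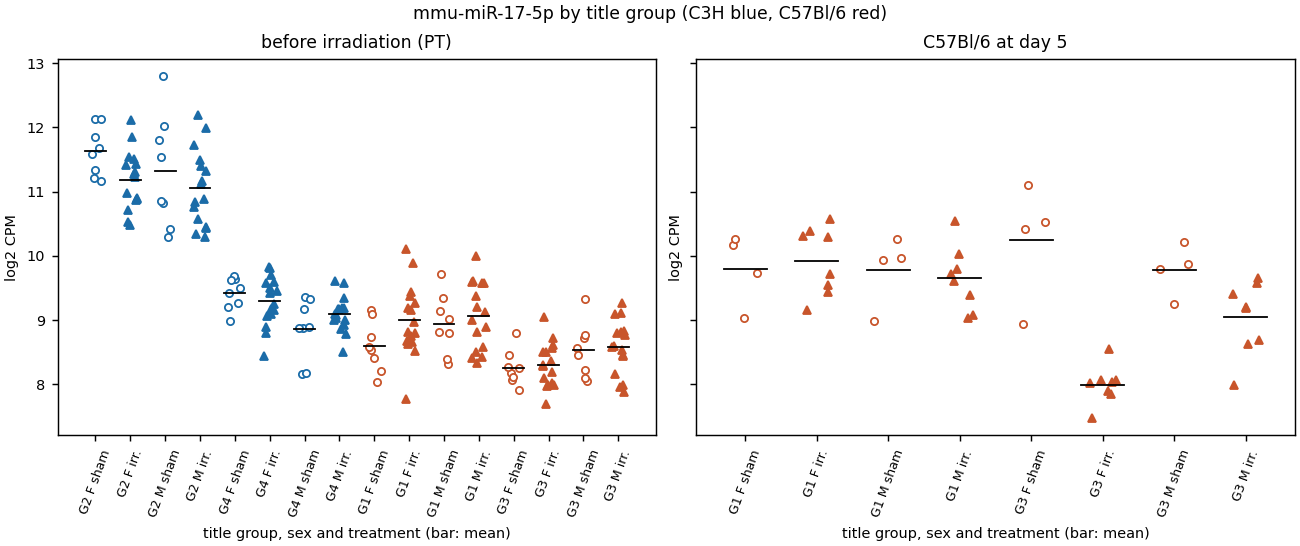
Level of mmu-miR-17-5p in each sample (log2 CPM) by title group, sex and treatment, before irradiation in both strains (left) and at D5 in C57Bl/6 (right), with bars at the mean. Before irradiation all G2 samples lie above all G4 samples of the same strain, and at D5 the irradiated G3 females (7.47 to 8.55) lie below their 4 sham controls.

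The clearest change with irradiation concerned the balance between members and their near copies at M1. The X cluster holds mmu-miR-106a-5p, mmu-miR-18b-5p, mmu-miR-20b-5p and mmu-miR-363-3p, counterparts of mmu-miR-17-5p, mmu-miR-18a-5p, mmu-miR-20a-5p and mmu-miR-92a-3p. In C3H at M1, 3 of its 4 miRNAs were higher after irradiation and 0 lower, with a median log2 difference of 1.06 over the 4, where 3.31% of all miRNAs passed. In C57Bl/6 at M1, 2 of 4 were higher and 0 lower, with a median of 0.74, where 3.73% of all miRNAs passed. The medians over all 483 miRNAs at M1 were −0.05 in both strains.

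mmu-miR-106a-5p in C3H at M1 ran from 3.22 to 5.90 log2 CPM in sham mice (median 4.37, n = 32) and from 4.41 to 6.70 in irradiated mice (median 5.74, n = 58). The groups overlapped, and the fitted log2 difference was 1.12 ± 0.15 (SE, adjusted p = 3.66e-11 by edgeR). mmu-miR-18b-5p rose by 1.46 (adjusted p = 1.23e-13) and mmu-miR-20b-5p by 0.89 (adjusted p = 5.47e-07), while mmu-miR-363-3p, with a median of 3 reads per sample over the series, differed by 1.00 (adjusted p = 0.187). In C57Bl/6 at M1, mmu-miR-106a-5p rose by 0.52 (adjusted p = 0.00928) and mmu-miR-18b-5p by 0.97 (adjusted p = 1.01e-06), and mmu-miR-20b-5p differed by 0.41 (adjusted p = 0.0813).

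The counterparts on chromosome 14 did not pass at M1 in either strain. mmu-miR-17-5p in C3H at M1 had a median of 9.08 in sham and 9.31 in irradiated mice, with a fitted log2 difference of 0.08. mmu-miR-18a-5p had medians of 7.25 and 7.51, and mmu-miR-20a-5p of 11.52 and 11.40. In C57Bl/6 the medians of mmu-miR-17-5p were 8.33 and 8.36, with a fitted log2 difference of 0.04.

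Because both copies are counted in the same library, their ratio does not depend on the scaling between libraries. A log2 ratio was formed in each sample, with 0.5 reads added to both counts, for the 3 pairs of near copies and for 5 pairs within the cluster, and compared by a two-sided permutation test with 100000 resamples, giving 112 tests after irradiation. Of these, 16 passed an adjusted p of 0.05 over the 112, 6 of them higher after irradiation (29 at an unadjusted p under 0.05). In the 16 tests at PT, 0 had an unadjusted p under 0.05, with differences of −0.23 to 0.17. These pool title groups that were unlike in C3H. In G2 the irradiated minus sham differences at PT were −0.38 for mmu-miR-17-5p to mmu-miR-106a-5p, −0.64 for mmu-miR-18a-5p to mmu-miR-18b-5p and −0.45 for mmu-miR-20a-5p to mmu-miR-20b-5p. In G4 they were 0.19, 0.18 and 0.18. In G1 and G3 of C57Bl/6 they ran from −0.16 to 0.19. The differences within title groups at PT were not tested. The near-copy ratios use the same samples as the tests of the X cluster miRNAs above and are not separate evidence of their rise.

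In C3H at M1, the ratio of mmu-miR-17-5p to mmu-miR-106a-5p ran from 3.52 to 5.88 in sham mice (median 4.61, n = 32) and from 2.62 to 4.29 in irradiated mice (median 3.51, n = 58). All 58 irradiated samples lay below the sham median. The mean log2 ratio fell by 1.10 ± 0.12 (SE, two-sided permutation p = 1e-05, the smallest that these resamples can give, adjusted p = 0.000373). In linear terms there were 24.5 reads of mmu-miR-17-5p for each read of mmu-miR-106a-5p at the sham median and 11.4 at the irradiated median.

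The ratio of mmu-miR-18a-5p to mmu-miR-18b-5p fell by 1.25 in C3H, from a median of 7.54 reads to 3.29 reads per read, and that of mmu-miR-20a-5p to mmu-miR-20b-5p by 1.06, from 75.1 to 35.3. The irradiated samples below the sham median numbered 58 and 57 of 58. Both tests gave the same smallest permutation p as the first pair (adjusted p = 0.000373). The 3 ratios fell by similar amounts.

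In C57Bl/6 at M1 the same 3 ratios fell by less. The log2 differences were −0.45 for mmu-miR-17-5p to mmu-miR-106a-5p (adjusted permutation p = 0.0122), −0.72 for mmu-miR-18a-5p to mmu-miR-18b-5p (adjusted permutation p = 0.00224) and −0.34 for mmu-miR-20a-5p to mmu-miR-20b-5p (adjusted permutation p = 0.00400). Of 68 irradiated samples, 56, 49 and 56 lay below the respective sham medians. Taken by title group or by sex, every difference at M1 had the same sign, from −0.70 to −1.47 in C3H and from −0.17 to −1.06 in C57Bl/6. Whether the fall differed between strains was not tested. The summed red cell markers at M1 lay close in both arms, with medians of 16.06 and 16.17 in sham and irradiated C3H and 15.55 and 15.51 in C57Bl/6. The hepatocyte sum was higher in irradiated C3H at M1 (medians 11.21 and 12.19) and the leukocyte sum lower (13.95 and 13.59), and their part in the ratios was not tested.

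**Figure D4:**
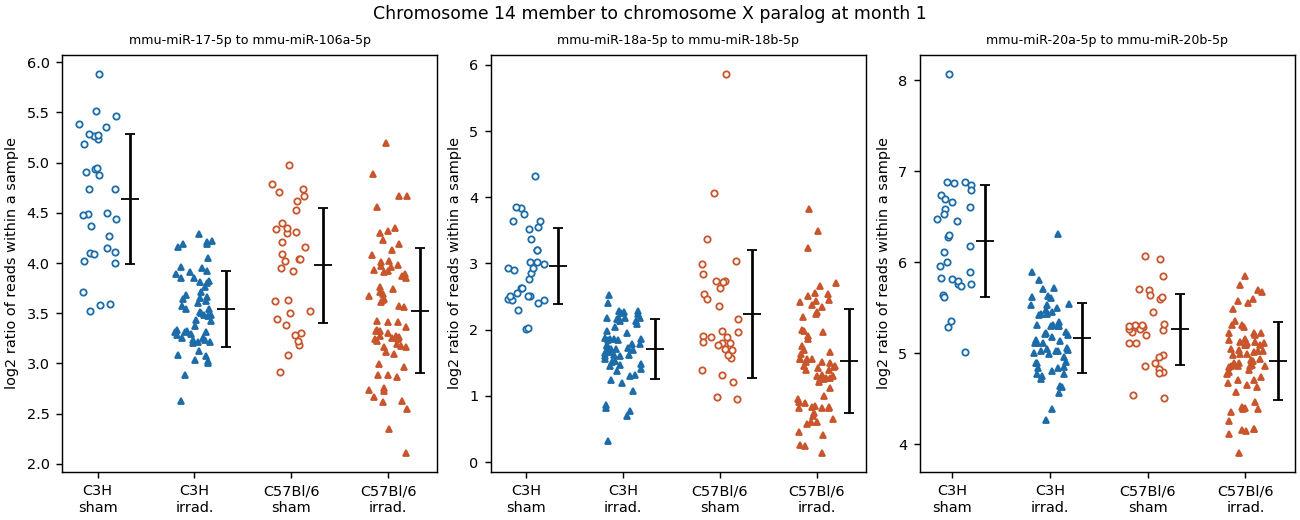
Within-sample log2 ratio of 3 members to their near copies on chromosome X at M1, for sham and irradiated mice of both strains, with 1 point per sample and the mean with SD beside the points. In C3H the irradiated samples lie lower in all 3 ratios, with 58, 58 and 57 of 58 below the sham median, and in C57Bl/6 the shift is smaller, with 56, 49 and 56 of 68.

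At other times the near-copy ratios gave few calls. Of the 4 X cluster miRNAs themselves, 0 passed in C3H at D2, with a median log2 difference of −0.46, where 4.97% of all miRNAs passed. In C57Bl/6 at D5, 1 of the 4 was lower and 0 higher, with a median of −0.08, where 14.1% passed. In C3H at D2 the ratios of mmu-miR-17-5p to mmu-miR-106a-5p and of mmu-miR-20a-5p to mmu-miR-20b-5p were higher after irradiation by 0.61 and 0.67 (adjusted permutation p = 0.0266 and 0.00406), opposite in sign to M1. In G2 alone these differences were 0.25 and 0.68 without passing (adjusted permutation p = 0.686 and 0.108), and in G4 they were 0.98 and 0.67. In C57Bl/6 the second was lower at M2 by 0.43 (difference −0.43, adjusted permutation p = 0.0122) and the first at M3 by 0.54 (difference −0.54, adjusted permutation p = 0.0414, or 0.0570 where only G1 and G2 mice were tested at all time points). Within the cluster, mmu-miR-92a-3p rose against mmu-miR-17-5p in C57Bl/6 at M4 by 0.53 (adjusted permutation p = 0.00084), and in C3H at M3 mmu-miR-19a-3p and mmu-miR-20a-5p fell against it by 0.42 and 0.35 (adjusted permutation p = 0.0352 for both). The 3 calls at D5 in C57Bl/6, all ratios to mmu-miR-17-5p, rose by 0.49 to 1.09 and did not pass without the G3 females (0.22 to 0.46, adjusted permutation p = 0.204 to 0.386).

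The other arms of the same hairpins are less abundant. Of 6 such products, mmu-miR-17-3p, mmu-miR-18a-3p, mmu-miR-19b-1-5p and mmu-miR-92a-1-5p could be tested, and mmu-miR-19a-5p and mmu-miR-20a-3p were at 0 in 860 and 751 of 899 samples. mmu-miR-17-3p averaged 5.07 log2 CPM and mmu-miR-18a-3p 4.53. None of the 4 passed at any time point in either strain. The third paralogous cluster, on chromosome 5, holds mmu-miR-106b-5p, mmu-miR-93-5p and mmu-miR-25-3p. Of its 3 miRNAs only mmu-miR-93-5p passed at any time point, with a rise of 0.46 on the log2 scale at D5 in C57Bl/6 (adjusted p = 0.0234 by edgeR), where 14.1% of all miRNAs passed. That comparison includes the G3 females, whose red cell markers were higher in the irradiated arm, and their part in the value was not tested.

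Whether irradiation acted differently by strain was tested by a joint F test of the strain by treatment terms over the shared time points. No member passed (edgeR, 4.35% of all miRNAs passed), and the smallest value was for mmu-miR-17-5p (unadjusted p = 0.0557, adjusted p = 0.415). With a term for title group and sex, mmu-miR-17-5p passed (adjusted p = 0.00148), as it did with mmu-miR-451a as covariate (adjusted p = 0.0177). The joint test includes D5 in C57Bl/6, where the same 2 settings gave log2 differences of −0.86 and −0.79 for mmu-miR-17-5p. The D5 difference of the main fit lay in title group G3, and how far these calls rest on it was not tested. The same test for sex called no member in C3H (0.414% of all miRNAs passed, 0 members at an unadjusted p under 0.05) and none in C57Bl/6 (5.38% passed). In C57Bl/6, mmu-miR-17-5p and mmu-miR-19b-3p had unadjusted p of 0.0304 and 0.0361 (adjusted p = 0.193 and 0.215 by edgeR). At D2 alone, female minus male effects there were 1.11 and 0.82 for these 2. For mmu-miR-18a-5p and mmu-miR-19a-3p they were 0.85 and 0.89 (edgeR, these 4 at adjusted p = 0.137 to 0.185). They were 0.49 for mmu-miR-20a-5p and −0.24 for mmu-miR-92a-3p. The D2 fold changes in C57Bl/6 thus pool sexes whose fitted effects were unlike.

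Before exposure the strains differed most in mmu-miR-17-5p and mmu-miR-18a-5p, and little in mmu-miR-19b-3p and mmu-miR-92a-3p. Of the 6 members, 4 were lower in C57Bl/6 than in C3H at PT, in a comparison where 50.7% of all miRNAs passed. mmu-miR-17-5p was lower by 1.96 on the log2 scale (difference −1.96 ± 0.11, SE, adjusted p = 2.07e-60 by edgeR) and mmu-miR-18a-5p by 1.44 (difference −1.44, adjusted p = 5.23e-48). mmu-miR-19a-3p and mmu-miR-20a-5p differed by −0.47 and −0.36 (adjusted p = 1.17e-06 and 4.61e-07), and by −0.25 and −0.04 in a fit of G1 and G2 mice alone (adjusted p = 0.0813 and 0.695). A fit of the PT samples alone, with title group and sex, gave other values. There mmu-miR-19a-3p differed by −0.34 between G1 and G2 and by −0.53 between G3 and G4 (adjusted p = 0.00293 and 3.55e-06 by edgeR). For mmu-miR-20a-5p the differences were −0.14 and −0.49 (adjusted p = 0.117 and 5.34e-09). mmu-miR-19b-3p and mmu-miR-92a-3p differed by −0.06 (95% CI −0.21 to 0.09) and −0.09 (95% CI −0.25 to 0.08).

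Most of the difference in mmu-miR-17-5p lay in one title group of C3H. In G2 its log2 CPM before exposure ran from 10.3 to 12.8 with a mean of 11.24 ± 0.59 (SD, n = 48), and in G4, the other group of C3H, from 8.16 to 9.82 with a mean of 9.17 ± 0.38. In C57Bl/6 it averaged 8.94 ± 0.52 in G1 and 8.42 ± 0.39 in G3. G2 did not overlap with G4, while G4 overlapped with G1 and G3. The strain difference was −2.44 between G1 and G2 and −0.74 between G3 and G4 (adjusted p = 5.11e-54 and 5.42e-11 by edgeR), so its sign held in both and its size did not. The summed red cell markers had median log2 CPM of 16.88 in G2, 16.15 in G4, 16.56 in G1 and 15.80 in G3 before exposure, and their ranges overlapped. The part of red cell content in the level of mmu-miR-17-5p was not tested here.

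mmu-miR-18a-5p followed the same order, with means of 8.67 ± 0.48 in G2, 7.41 ± 0.38 in G4, 6.84 ± 0.57 in G1 and 6.73 ± 0.50 in G3. mmu-miR-19b-3p and mmu-miR-20a-5p did not. mmu-miR-19b-3p averaged 7.99 in G2 and 8.94 in G4, and mmu-miR-20a-5p 10.87 in G2 and 11.77 in G4, so both were lower in the title group where mmu-miR-17-5p was higher. mmu-miR-92a-3p reversed between the title groups, with a strain difference of −0.32 between G1 and G2 (adjusted p = 0.00103 by edgeR) and 0.31 between G3 and G4 (adjusted p = 0.00221).

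In sham mice, levels changed with time. In C3H, 4 of 6 members changed over the bleeds by the F test (46% of all miRNAs passed). mmu-miR-17-5p was lower than at PT at every later bleed, by log2 differences of −1.49 to −1.84, and mmu-miR-18a-5p by −0.82 to −1.11. mmu-miR-92a-3p was lower at D2, M2, M3 and M4, down to −0.94 at M3 (adjusted p = 3.51e-06 by edgeR). Its sham mean in G2 was 12.40 at PT and 11.01 to 12.05 at the later bleeds. In G4 it was 11.15 at PT and 11.06 to 11.39 at D2, D5 and M1. mmu-miR-20a-5p passed the F test but at no single bleed, with differences of −0.27 to 0.34. G2 alone was sampled at M2, M3 and M4, while PT pools G2 and G4. Sham means of mmu-miR-20a-5p at PT were 11.02 in G2 and 11.72 in G4. In G2 they were 11.39 at M2, 11.15 at M3 and 11.67 at M4, so the −0.27 at M3 was not a fall within G2.

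The fall of mmu-miR-17-5p in C3H was again that of title group G2. Sham G2 mice averaged 11.48 ± 0.67 (SD, n = 16) at PT and 8.97 to 9.28 at the later bleeds, while sham G4 mice averaged 9.13 ± 0.46 at PT and 8.84 to 9.22 at D2, D5 and M1. G2 thus stood apart at PT and came to lie near G4 afterwards. In a fit of G3 and G4 mice alone, 0 of the 6 members passed over time in C3H sham mice, with 0 at an unadjusted p under 0.05.

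In sham C57Bl/6, all 6 members changed over time (62.9% of all miRNAs passed), and they did not move as a block. At D5, mmu-miR-17-5p was higher than at PT by 1.37 and mmu-miR-18a-5p by 0.71, while mmu-miR-19a-3p, mmu-miR-19b-3p and mmu-miR-20a-5p were lower by 1.11, 0.84 and 0.98 on the log2 scale (differences −1.11, −0.84 and −0.98). All 5 passed (edgeR, adjusted p = 0.000465 or less), and so did the same 5 at D2 in the same directions. At D2 the title groups were unlike each other. From PT to D2, sham mmu-miR-17-5p went from 8.77 to 9.94 in G1 and from 8.39 to 8.87 in G3, and mmu-miR-18a-5p from 6.68 to 7.77 and from 6.72 to 6.74. mmu-miR-19a-3p went from 6.55 to 6.46 in G1 and from 7.16 to 6.07 in G3, and mmu-miR-19b-3p from 8.12 to 7.95 and from 8.85 to 7.94. At D5 the direction of all 5 was shared by G1 and G3. By M1 the rise of mmu-miR-17-5p had gone (−0.15, adjusted p = 0.555). At M4 mmu-miR-17-5p and mmu-miR-18a-5p were higher again, by 0.79 and 0.65, and mmu-miR-20a-5p lower by 0.56 (difference −0.56), but G1 alone was sampled at M4 while PT pools G1 and G3. Within G1 the sham means from PT to M4 were 8.77 and 9.38 for mmu-miR-17-5p, 6.68 and 7.35 for mmu-miR-18a-5p, and 10.71 and 10.48 for mmu-miR-20a-5p, the last a smaller step than the fitted one.

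mmu-miR-92a-3p took its own course in C57Bl/6. In sham mice of G1 it averaged 11.97 ± 0.47 (SD, n = 16) at PT, 11.07 ± 0.43 at M2, 10.16 ± 0.43 at M3 and 10.64 ± 0.45 at M6. The highest of the 16 samples at M3, 11.07, lay below the lowest at PT, 11.16. Against PT the log2 difference was −1.64 at M3 (adjusted p = 6.97e-16 by edgeR) and −1.15 at M6 (adjusted p = 1.18e-08). Bleeds at different times were not stated to be sequenced together, so time and sequencing run cannot be told apart.

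The members also split when samples of the same strain, arm and time were compared. After the mean of each of the 32 groups was removed, Pearson's r over 899 samples was 0.83 between mmu-miR-17-5p and mmu-miR-18a-5p and 0.82 between mmu-miR-19a-3p and mmu-miR-19b-3p. mmu-miR-20a-5p went with mmu-miR-19a-3p and mmu-miR-19b-3p (0.75 with each), although it shares its seed with mmu-miR-17-5p, with which it gave −0.05. After the means of title group and sex were removed as well, mmu-miR-17-5p gave 0.77 with mmu-miR-18a-5p and 0.35 with mmu-miR-20a-5p. These coefficients describe samples that share mice, libraries and depth and carry no test.

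mmu-miR-92a-3p was closest to mmu-miR-486a-5p, one of the red cell markers. Over the same samples its r was 0.87 with mmu-miR-486a-5p and 0.67 with mmu-miR-451a, against 0.50 with mmu-miR-17-5p and 0.14 with mmu-miR-20a-5p. mmu-miR-17-5p gave 0.57 with mmu-miR-451a. With title group and sex removed as well, r was 0.91 with mmu-miR-486a-5p, 0.78 with mmu-miR-25-3p, 0.61 with mmu-miR-20a-5p and 0.60 with mmu-miR-451a. mmu-miR-486a-5p and mmu-miR-486b-5p have nearly the same counts and cannot be taken as separate here.

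Among 158 miRNAs with a mean log2 CPM of 5 or more, mmu-miR-17-5p was most like mmu-miR-140-5p (r = 0.81), mmu-miR-106b-5p (0.75) and mmu-miR-223-3p (0.61), the last a miRNA of myeloid cells. mmu-miR-18a-5p was most like mmu-miR-140-5p (0.75), mmu-miR-106b-5p (0.65) and mmu-miR-222-3p (0.63). mmu-miR-19a-3p was most like mmu-miR-30e-5p (0.65), mmu-miR-185-5p (0.62) and mmu-miR-130b-3p (0.61). mmu-miR-19b-3p was most like mmu-miR-185-5p (0.69), mmu-miR-130a-3p (0.65) and mmu-miR-130b-3p (0.63). mmu-miR-20a-5p was most like mmu-miR-30e-5p (0.75), mmu-miR-93-5p (0.73) and mmu-miR-185-5p (0.72), and mmu-miR-92a-3p most like mmu-miR-486a-5p (0.87), mmu-miR-486b-5p (0.87) and mmu-miR-425-5p (0.71). mmu-miR-17-5p and its hairpin partner mmu-miR-17-3p gave r = 0.02. This ranking still carries differences between title groups. With title group and sex removed as well, mmu-miR-106b-5p (0.81) stood above mmu-miR-140-5p (0.69) for mmu-miR-17-5p, and mmu-miR-93-5p (0.83) above mmu-miR-30e-5p (0.79) for mmu-miR-20a-5p.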

How the data were processed

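The authors left out plasma over an absorbance limit for haemolysis, prepared libraries with the QIAseq miRNA kit, trimmed reads by length and quality, aligned them to mouse miRNAs (mm10) with BaseSpace applications and rejected runs with few miRNA reads. The deposited table holds raw counts per miRNA and sample, with no normalization. Whether the molecular identifiers of the kit were used, and how many mismatches were allowed, is not given in the sources used here, so reads may hold PCR copies. All 899 columns were matched to samples by title. Groups are strain, treatment and time point (32 groups), and the members, lists and tests were chosen with earlier results of these data known.

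Counts were analysed in R 4.3.3 with edgeR 4.0.16 (TMM normalization, filterByExpr, which kept 483 miRNAs and 99.99% of reads, quasi-likelihood F tests with 867 residual degrees of freedom, Benjamini-Hochberg adjustment over the 483 miRNAs of a comparison, threshold 0.05). Printed levels are log2 CPM with a prior count of 2. limma 3.58.1 and DESeq2 1.42.0 served as alternatives. TMM factors ran from 0.372 to 1.59. Intervals are 95%. All depths are total counts per sample.

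Named miRNAs are the 6 members, fixed lists (other arms, X cluster, miR-106b cluster, markers of red cells, leukocytes, endothelium and platelets, hepatocytes), and for each member the 3 most correlated miRNAs with a mean log2 CPM of 5 or more. The 7 lists were not tested as sets. Ratios between 2 miRNAs of a sample were compared by two-sided permutation tests with 100000 resamples, adjusted over 112 tests.

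Samples of the same mouse share a number. Deviations from group means correlated by 0.0669 on average in 1962 same-mouse pairs and by −0.000847 in pairs of different mice of a strain, and the mouse numbers in the titles are the source of this pairing. The main fit has no block for the mouse, since sham and irradiated mice differ, and a block is an alternative. Repeated bleeds of a mouse are therefore treated as separate samples, which makes p-values over time points approximate. No 2 samples were alike within sampling noise (smallest chi-square per degree of freedom within a group 24.0). On simulated counts with 200 of 483 miRNAs changed, the test recovered 52% of 2-fold changes at D5 in C57Bl/6 and 74% at M1 in C3H, and 31% and 45% of 1.5-fold changes.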

Additional observations from a re-analysis of the deposited data

How the results depend on the processing

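Of 75 recomputed counts of members or ratios past the threshold, 67 stayed within 1.5 times the first count and 8 did not. With the counts of each member and its near copy summed, 1 sum passed after irradiation in C3H (mmu-miR-18a-5p with mmu-miR-18b-5p at M1, 0.40, adjusted p = 0.0408). In C57Bl/6, 2 sums passed (mmu-miR-20a-5p with mmu-miR-20b-5p at D5, 0.40, and mmu-miR-18a-5p with mmu-miR-18b-5p at M1, 0.40). There the sum of mmu-miR-17-5p with mmu-miR-106a-5p at D5 was −0.52 (adjusted p = 0.0583). Without its near copy, mmu-miR-18a-5p at M1 was 0.18 in C3H and 0.19 in C57Bl/6 (adjusted p = 0.624 and 0.497 by edgeR). In C57Bl/6, 0 members passed in G1 and G2 mice alone and 0 without the G3 females at D5. Fits without those females, fits of G3 and G4 alone and ratios in G1 and G2 alone were chosen after seeing the data. In the strain difference of the irradiation effect, 1 member passed with a term for title group and sex and 1 with mmu-miR-451a as covariate. Before irradiation, 2 members differed between strains in the fit of G1 and G2 mice alone, and over time in C3H sham mice 0 in G3 and G4 alone. In the fit of the PT samples alone, mmu-miR-17-5p, mmu-miR-18a-5p, mmu-miR-19a-3p and mmu-miR-92a-3p passed between G1 and G2. The adjusted p of the last 2 was 0.00293 and 0.00103 by edgeR, so this count depended on the fit. The cause of these changes was not tested.

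Of 160 recomputed values of single miRNAs, 144 kept their direction and call, 13 lost the call, 1 gained it and 2 reversed: mmu-miR-17-5p at D5 in C57Bl/6 in G1 and G2 alone (0.072), and the strain difference of mmu-miR-92a-3p in G3 and G4 alone (0.27, adjusted p = 0.0123). The counts of members past the threshold under a replicate block for the mouse were those without it (0 and 1 after irradiation in C3H and C57Bl/6, 4 before irradiation, 4 and 6 over time). The M1 near-copy ratios passed under all 5 of their alternatives. DESeq2 was not run for the F tests. The rarest members had median counts of 188 to 211 reads, and smaller changes could be missed. The 52% of 2-fold changes recovered at D5 in C57Bl/6 is a share over simulated miRNAs of any level, not of these members.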
